A study of Homo sapiens with 14 samples.

Results

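The 10 genes described here encode parts of the contractile actin and myosin system, and several of them are used as markers of smooth muscle. They are the actin genes ACTG2 and ACTA2, the actin-binding protein genes TAGLN, CNN1, and CALD1, the tropomyosin genes TPM1 and TPM2, the myosin light chain gene MYL9, and the nonmuscle myosin heavy chain genes MYH9 and MYH10. They were taken by name from a table of 19410 genes, and were chosen because ACTG2 is much higher and MYH10 much lower in the MLL1-KO lines than in parental cells. The values of all 10 genes in that comparison are therefore a description and carry no test. All 10 passed the filter for testing, a level of at least 1 TPM in at least 2 of the 14 libraries (TPM is a level corrected for gene length that adds up to the same total in each library), as did 13540 genes in all, but CNN1 passed it only through libraries of the SIN3A+SIN3B-DKO lines.

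The RNA came from MDA-MB-231, an established human triple-negative breast cancer (TNBC) line, unedited (parental) or as 1 of 6 CRISPR/Cas9 derivatives. SAP30-KO1 and SAP30-KO2 were edited in SAP30, a subunit of the SIN3 corepressor complex, SIN3A+SIN3B-DKO1 and SIN3A+SIN3B-DKO2 in both scaffold genes of that complex, and MLL1-KO1 and MLL1-KO2 in MLL1, a histone H3 lysine methyltransferase. Each of the 7 conditions had 2 libraries, no condition was treated, and the 2 parental libraries serve every comparison with parental. Each line is a mixture of several knockout cells that were selected singly and expanded, so that a line is neither a clone nor an unselected population. The labels do not say whether the libraries of a line came from separate cultures, and p-values measure the spread between these libraries, which may be technical.

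Actin filaments slide along bipolar filaments of myosin II, and a cell pulls on its surroundings when the regulatory light chain of that myosin is phosphorylated. Smooth muscle cells carry their own actin isoforms and actin-binding proteins for this task, while other cells use the nonmuscle isoforms for shape, adhesion, and migration. Many smooth muscle and cytoskeletal genes are known targets of serum response factor (SRF), which binds a sequence called the CArG box together with cofactors of the myocardin family.

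The libraries held from 18415036 to 23162682 reads, recovered from the steps of the deposited values. SAP30 itself was at 78.9 and 82.8 TPM in the parental libraries and between 2.75 and 4.96 TPM in the 4 SAP30-KO libraries. MLL1, listed as MLL, was at 49.0 and 56.7 TPM in parental and from 15.8 to 27.7 TPM in the MLL1-KO libraries, and it was also lower, from 23.01 to 35.4 TPM, in the SAP30-KO libraries. What lowered the MLL1 level in either genotype was not tested. SIN3B was at 75.1 and 77.4 TPM in parental and from 43.5 to 50.2 TPM in the libraries labelled SIN3A+SIN3B-DKO, whereas SIN3A was higher in those libraries, from 55.1 to 62.5 TPM against 43.1 and 45.4 TPM. The RNA level of SIN3A thus does not show the knockout that the label names. The paper reports knockout of both the SIN3A and SIN3B proteins in its DKO cells, with an immunoblot. Protein was not measured in these libraries, and the label is used below as a name only. VIM, CD44, EGFR, AXL, and CAV1, which mark this cell line, were all present. Of 5 genes listed as low or absent in this line, ESR1 and PGR stayed below 1 TPM in every library and CDH1 was at 1.07 and 1.25 TPM in parental, but ERBB2 was at 41.5 and 42.8 TPM and EPCAM at 19.1 and 19.2 TPM there. The 3 of these genes that were tested were all called lower in each edited line except MLL1-KO2, where 2 were, and the part of this in the results below was not tested. Of 7 genes that define smooth muscle cells, MYOCD had 0 reads in every library, which allows up to 3 reads in each, MYH11 had at most 2 reads, and DES at most 3 reads, and 5 of the 7 stayed under 1 TPM in parental. The rest were SMTN, at 61.6 and 68.1 TPM in parental, and ACTA2, at 6.63 and 7.06 TPM. Among the low genes LMOD1 had 1 and 3 reads in parental, 11 to 21 in the SAP30-KO, and 5 to 10 in the SIN3A+SIN3B-DKO libraries. In the MLL1-KO libraries LMOD1 had at most 1 read. It did not pass the filter and was not tested, and CNN1, also low, is described below. The 7 genes summed to 68.6 and 75.5 TPM in parental and 102 to 124 TPM in SAP30-KO libraries. They summed to 89.8 to 108 TPM in SIN3A+SIN3B-DKO and 106 to 141 TPM in MLL1-KO libraries, most of it SMTN.

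Promoter sequences of the 2 smooth muscle actin genes are shown because these genes moved together in 4 lines and apart in 2 lines, as described below. The RefSeq promoter table (GRCh38.p14) had entries for 8 of the 10 genes, not for TAGLN and MYL9. A CArG box, here 10 bases with CC first, GG last, and only A or T between, was searched in the 250 bases before each start. The pattern, though not each box, reads the same on either strand. Of 35116 promoters in all, 407 (1.16%) held a CArG box and 11 (0.0313%) held at least 2. ACTG2 held 2 boxes, from 110 to 101 and from 73 to 64 bases before its start. ACTA2 has 2 entries, of which 1 held no box of either kind. The other held no perfect box but 2 boxes with 1 inner G or C, from 121 to 112 and from 71 to 62 bases before the start, and 7.04% of all promoters held a box when 1 inner G or C was allowed. Of the other genes with an entry, 1 of the CALD1 promoters held such a relaxed box and the windows of CNN1, TPM1, TPM2, MYH9, and MYH10 held none of these letters. The stretches from 130 to 31 bases before the start are printed 5′ to 3′ on the strand of the gene, at chr2:74120005-74120104 on the plus strand for ACTG2 and chr10:90712561-90712660 on the minus strand for ACTA2 (GRCh37, by exact match of the RefSeq sequence), with the boxes in capitals. A match is a description of the letters and does not show that SRF binds there in these cells.
ACTG2: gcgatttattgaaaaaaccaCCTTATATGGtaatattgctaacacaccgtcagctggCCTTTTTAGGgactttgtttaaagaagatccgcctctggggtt
ACTA2: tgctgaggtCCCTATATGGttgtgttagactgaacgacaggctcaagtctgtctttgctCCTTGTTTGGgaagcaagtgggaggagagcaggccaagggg

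ACTG2 (GRCh37 chr2:74119441-74146992, plus strand), the gamma actin of enteric smooth muscle, was low in parental cells, lower still in 4 lines, and high in both MLL1-KO lines. It was at 10.7 and 9.44 TPM in the parental libraries, from 102 and 88 reads. In the MLL1-KO lines it was at 291 and 313 TPM in MLL1-KO1 and at 278 and 278 TPM in MLL1-KO2, which is 30.04-fold and 27.7-fold the parental mean. These 4 libraries stood far above all others and did not overlap with any of them. SAP30-KO1 had 1.67 and 1.74 TPM and SAP30-KO2 had 3.69 and 3.94 TPM. SIN3A+SIN3B-DKO1 had 1.86 and 2.32 TPM and SIN3A+SIN3B-DKO2 had 1.25 and 0.820 TPM. All 8 libraries of these lines lay below both parental libraries, so ACTG2 RNA moved in opposite directions in the MLL1-KO lines and in the other lines, a difference that was not tested because the choice of the genes rests on it.

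The ACTG2 level in the SAP30-KO and SIN3A+SIN3B-DKO lines was not used to choose the genes and was tested against parental, with the reservation that the parental libraries are those of the comparison that did. The log2(TPM + 0.5) difference of ACTG2 was -2.25 (SE 0.13) in SAP30-KO1 and -1.29 (SE 0.13) in SAP30-KO2 (adjusted p = 1.69e-07 and 1.01e-05, limma with Benjamini-Hochberg adjustment over all genes tested). It was -2.03 (SE 0.13) in SIN3A+SIN3B-DKO1 and -2.79 (SE 0.13) in SIN3A+SIN3B-DKO2, with adjusted p = 4.02e-07 and 6.88e-08 by the same test. On the means ACTG2 was 5.89-fold, 2.63-fold, 4.81-fold, and 9.71-fold lower, in that order, and each of these calls held under all 23 alternative settings. They rest on 9 to 43 reads per library. The lines of a genotype differed as well: the log2 difference of ACTG2 was -0.97 (SE 0.13) in SAP30-KO1 against SAP30-KO2 (adjusted p = 0.0129, limma) and 0.76 (SE 0.13) in SIN3A+SIN3B-DKO1 against SIN3A+SIN3B-DKO2 (adjusted p = 0.00376, limma), while the MLL1-KO lines stood 0.12 apart, a description. The first of these calls was lost when any of the 4 SAP30-KO libraries was left out, with log2 differences from -0.92 to -1.01, and the second without SIN3A+SIN3B-DKO2 replicate 2, at 0.56.

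ACTA2 (GRCh37 chr10:90694831-90751096, minus strand), the alpha actin of vascular smooth muscle and of myofibroblasts, was lower than parental in every edited line. The parental libraries had 7.06 and 6.63 TPM, from 94 and 86 reads. ACTA2 was at 2.18 and 1.88 TPM in SAP30-KO1, 2.13 and 2.57 TPM in SAP30-KO2, 1.65 and 1.13 TPM in SIN3A+SIN3B-DKO1, and 1.48 and 1.77 TPM in SIN3A+SIN3B-DKO2. In MLL1-KO1 it was at 0.994 and 1.48 TPM and in MLL1-KO2 at 0.877 and 0.526 TPM, from 7 to 22 reads. Unlike ACTG2, ACTA2 thus sat below parental in all 12 libraries of the edited lines, with no overlap. The log2 differences were -1.54 and -1.37 (SE 0.20 each) in the SAP30-KO1 and SAP30-KO2 lines and -1.97 and -1.79 (SE 0.20 each) in SIN3A+SIN3B-DKO1 and SIN3A+SIN3B-DKO2, with adjusted p from 1.39e-05 to 2.05e-04 (limma). The values in MLL1-KO1 and MLL1-KO2, -2.09 and -2.63, are a description. No pair of lines of a genotype differed past the test, and the 0.43 (SE 0.14) by which the SAP30-KO lines exceeded the SIN3A+SIN3B-DKO lines passed the p but not the 1.5-fold minimum (adjusted p = 0.0294, limma).

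**Figure D1:**
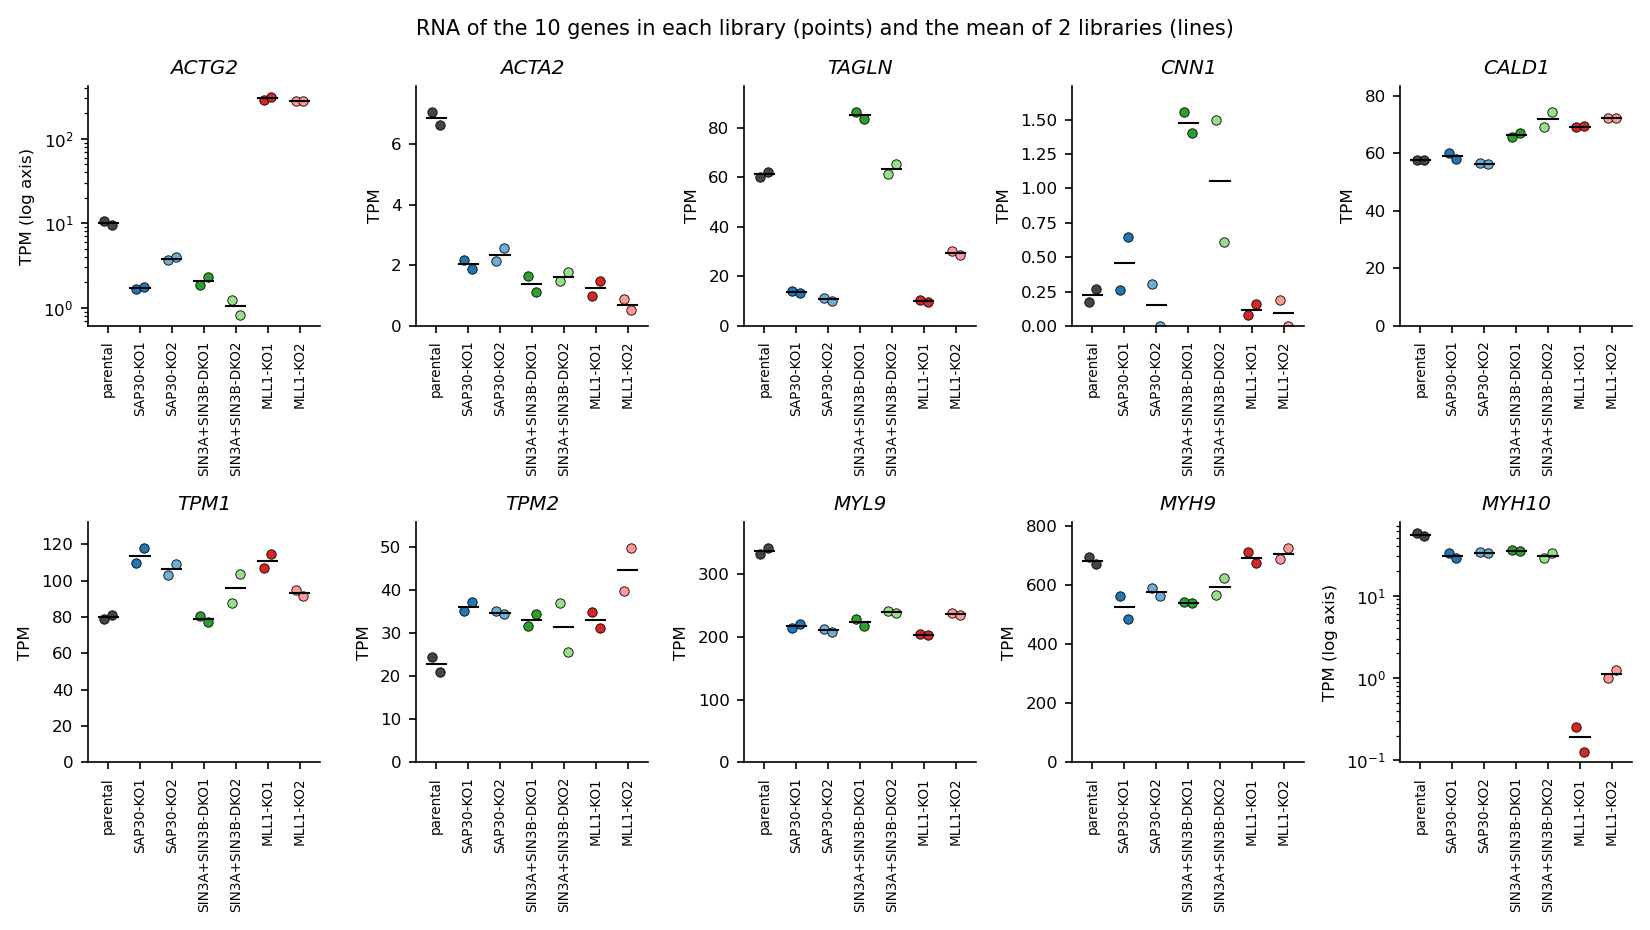
TPM of the 10 genes (y axes; log axes for ACTG2 and MYH10, linear from 0 for the others) in the 14 libraries, grouped by condition (x axes); each point is a library and each line the mean of 2 libraries. ACTG2 is highest and MYH10 lowest in the 4 MLL1-KO libraries, while ACTA2 and MYL9 are highest in the 2 parental libraries.

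Actin genes are close paralogs, and stretches that they share exactly with other genes were counted. This count allows no mismatch, leaves out pseudogenes, and gives no weight to the high level of ACTB. It is therefore no estimate of misplaced reads, which were not measured. Of all stretches of 50 bases in the GENCODE transcripts of ACTG2, 0.125% also occur in transcripts of another protein-coding gene, and of those of ACTA2, 0.315%. ACTB, the beta actin, was at 9967 and 10261 TPM in parental and from 8350 to 9068 TPM in the MLL1-KO libraries. ACTG1, the gamma actin of nonmuscle cells, was at 4426 and 4550 TPM in parental, from 3046 to 3273 TPM in the SAP30-KO, from 2778 to 2921 TPM in the SIN3A+SIN3B-DKO, and from 4419 to 4957 TPM in the MLL1-KO libraries. Like ACTG2 it was thus below parental, without overlap, in the SAP30-KO and SIN3A+SIN3B-DKO lines, but the MLL1-KO values lay near parental. The test called it lower, at log2 differences of -0.66 and -0.63 (SE 0.04 each), in SIN3A+SIN3B-DKO1 and SIN3A+SIN3B-DKO2 (adjusted p = 1.66e-07 and 2.81e-07, limma), and its differences of -0.53 and -0.49 in SAP30-KO1 and SAP30-KO2 passed the p (adjusted p = 6.70e-07 and 1.25e-06, limma) but were short of 1.5-fold. ACTA1 and ACTC1, the actins of skeletal and cardiac muscle, had at most 8 and 6 reads. ACTG2 made up 0.0655% and 0.0719% of the TPM of the 6 actin genes in the parental libraries, from 0.00595% to 0.0286% in the SAP30-KO and SIN3A+SIN3B-DKO libraries, and from 2.0% to 2.27% in the MLL1-KO libraries. Even there, cytoplasmic actins accounted for nearly all actin RNA.

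TAGLN (GRCh37 chr11:117070086-117078180, plus strand) encodes transgelin, an actin-binding protein of smooth muscle, and it separated the SAP30-KO lines from the SIN3A+SIN3B-DKO lines. It was at 60.4 and 62.4 TPM in parental. SAP30-KO1 had 14.3 and 13.5 TPM and SAP30-KO2 had 11.5 and 10.3 TPM, far below parental. In SIN3A+SIN3B-DKO1 it was at 86.6 and 83.8 TPM, above parental, and in SIN3A+SIN3B-DKO2 at 61.3 and 65.5 TPM, overlapping with parental. The MLL1-KO lines differed from each other, with 10.6 and 9.68 TPM in MLL1-KO1 and 30.2 and 28.5 TPM in MLL1-KO2, both below parental. The log2 difference of TAGLN was -2.10 in SAP30-KO1 and -2.45 in SAP30-KO2 (SE 0.07 each) (adjusted p = 6.37e-09 and 2.26e-09, limma). The difference of 0.47 (SE 0.07) in SIN3A+SIN3B-DKO1 passed the p but not the fold minimum (adjusted p = 1.54e-04, limma), and that in SIN3A+SIN3B-DKO2 was 0.05 (adjusted p = 0.601, limma). Compared directly, with no parental library involved, the log2 difference of TAGLN was -2.53 (SE 0.05) in the SAP30-KO against the SIN3A+SIN3B-DKO lines, 6.003-fold lower on the means and without overlap (adjusted p = 2.96e-10, limma). In MLL1-KO1 against MLL1-KO2 it was -1.49 (SE 0.07, adjusted p = 7.16e-08, limma), between libraries that also enter the comparison used to choose the genes.

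Genes around TAGLN on chromosome 11 were lower in the same lines. The median log2 difference from parental over 51 neighbouring genes tested was -0.88 and -0.89 in the SAP30-KO1 and SAP30-KO2 lines, -0.98 and -0.43 in MLL1-KO1 and MLL1-KO2, and -0.33 and -0.24 in SIN3A+SIN3B-DKO1 and SIN3A+SIN3B-DKO2. For the other 9 genes the medians of their neighbours lay between -0.27 and 0.17 in the 6 lines. With the running median of the neighbours subtracted in each library, TAGLN still stood at -1.23 and -1.55 (SE 0.06 each) in SAP30-KO1 and SAP30-KO2 (adjusted p = 1.03e-07 and 1.67e-08, limma). The value in SIN3A+SIN3B-DKO1 then became 0.80 (SE 0.06) and passed the fold minimum (adjusted p = 1.62e-06, limma), and that in SIN3A+SIN3B-DKO2 became 0.29. The difference between the SAP30-KO and SIN3A+SIN3B-DKO lines was -1.93 and that between MLL1-KO1 and MLL1-KO2 was -0.94 after this step, both still called. In the GENCODE annotation 47.8% of the exonic bases of TAGLN, 36.2% of those of ACTA2, and 22.7% of those of TPM1 are shared with another gene, and how such reads were counted is not given in the sources used here.

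**Figure D2:**
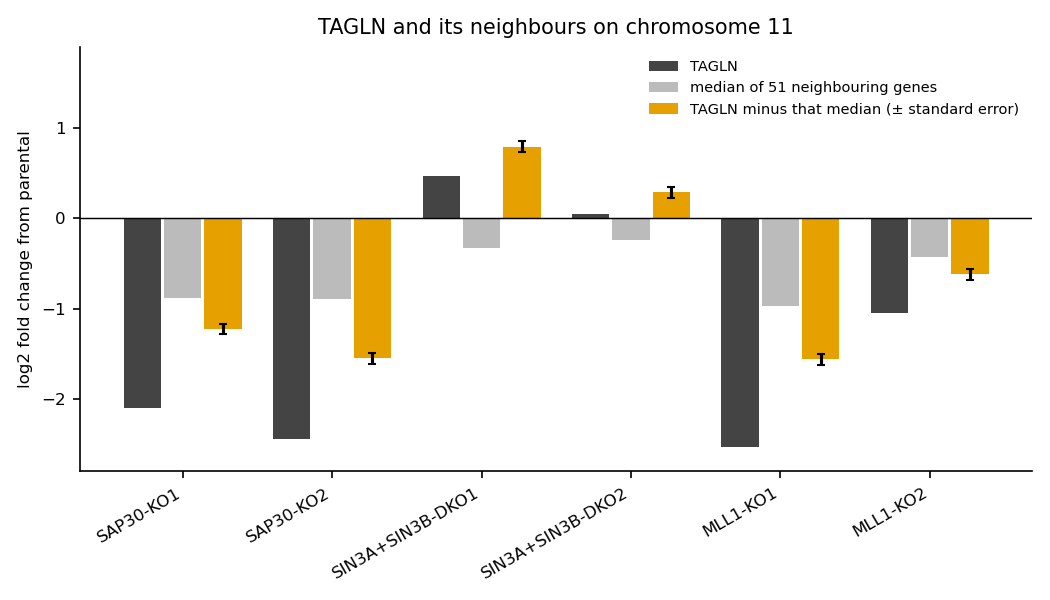
Log2 difference from parental (y axis) in the 6 lines (x axis) for TAGLN (dark bars), for the median of 51 neighbouring genes (light bars), and for TAGLN with that median subtracted in each library (orange bars, error bars are standard errors). The neighbours are lower in all 6 lines, most in MLL1-KO1 at -0.98, and TAGLN lies below them in 4 lines and above them in the SIN3A+SIN3B-DKO lines.

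CNN1 (GRCh37 chr19:11649582-11661138, plus strand), calponin 1, binds actin and slows the myosin ATPase of smooth muscle, and it was close to undetected in most libraries. It had 2 and 3 reads in the parental libraries (0.175 and 0.270 TPM), 3 and 8 reads in SAP30-KO1, 4 and 0 reads in SAP30-KO2, 1 and 2 reads in MLL1-KO1, and 2 and 0 reads in MLL1-KO2. The counts of 0 allow levels of up to 0.231 TPM in SAP30-KO2 and 0.263 TPM in MLL1-KO2. SIN3A+SIN3B-DKO1 had 21 and 18 reads (1.56 and 1.40 TPM) and SIN3A+SIN3B-DKO2 had 20 and 8 reads (1.5 and 0.612 TPM), all above parental. Since CNN1 entered the test only through these libraries, a difference of theirs was favoured by the filter, and its values are given as a description with no p. On the log2(TPM + 0.5) scale CNN1 stood at 1.46 (SE 0.34) in SIN3A+SIN3B-DKO1 and at 1.05 (SE 0.34) in SIN3A+SIN3B-DKO2. As ratios of reads per unit of depth these were 6.67 (95% exact interval 2.63 to 21.7) and 4.77 (1.82 to 15.8), intervals that cover counting error only. Over the alternative settings these log2 values ran from 1.02 to 2.57 and from 0.62, without SIN3A+SIN3B-DKO2 replicate 1, to 1.95. The log2 difference of the SAP30-KO from the SIN3A+SIN3B-DKO lines was -1.16 (SE 0.24), although the highest SAP30-KO library, at 0.650 TPM, exceeded the lowest SIN3A+SIN3B-DKO library.

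CALD1 (GRCh37 chr7:134429003-134655480, plus strand), which encodes caldesmon, a protein that holds tropomyosin on the actin filament, was among the steadiest of the 10 genes. It was at 57.7 and 57.7 TPM in parental and between 56.2 and 60.3 TPM in the 4 SAP30-KO libraries. Levels were higher, from 65.7 to 74.5 TPM, in the SIN3A+SIN3B-DKO libraries and from 69.1 to 72.2 TPM in the MLL1-KO libraries, without overlap with parental. The differences of 0.20 and 0.31 (SE 0.04 each) in SIN3A+SIN3B-DKO1 and SIN3A+SIN3B-DKO2 passed the p (adjusted p = 0.0014 and 7.61e-05, limma) but were short of 1.5-fold.

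TPM1 and TPM2 encode tropomyosins, which wind along actin filaments and gate their contact with myosin, and both were at or above parental levels. TPM1 (GRCh37 chr15:63334819-63364114, plus strand) was at 78.7 and 81.1 TPM in parental, 110 and 118 TPM in SAP30-KO1, 103 and 109 TPM in SAP30-KO2, 80.8 and 77.3 TPM in SIN3A+SIN3B-DKO1, and 87.7 and 104 TPM in SIN3A+SIN3B-DKO2. Its MLL1-KO libraries had from 91.7 to 115 TPM. The differences in SAP30-KO1 and SAP30-KO2, 0.51 and 0.41 (SE 0.07 each), passed the p (adjusted p = 1.50e-04 and 6.94e-04, limma) but not the fold minimum, and the direct difference of 0.34 (SE 0.05) between the SAP30-KO and the SIN3A+SIN3B-DKO lines did likewise (adjusted p = 2.64e-04, limma). TPM2 (GRCh37 chr9:35681989-35690053, minus strand) was lowest in the parental libraries, at 24.5 and 21.0 TPM. It was at 35.2 and 37.1 TPM in SAP30-KO1, 35.1 and 34.4 TPM in SAP30-KO2, 31.7 and 34.5 TPM in SIN3A+SIN3B-DKO1, 37.1 and 25.7 TPM in SIN3A+SIN3B-DKO2, 35.0 and 31.2 TPM in MLL1-KO1, and 39.7 and 49.7 TPM in MLL1-KO2. No edited library overlapped with parental for TPM2. It rose by 0.66 and 0.60 (SE 0.15 each) in SAP30-KO1 and SAP30-KO2 (adjusted p = 0.00412 and 0.00686, limma), just past 1.5-fold. Without parental replicate 2 these values were 0.55 and 0.50 and were no longer called, and the call in SAP30-KO2 was also lost under median ratio scaling, at 0.58, and with the neighbours subtracted, at 0.47.

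MYL9 (GRCh37 chr20:35169900-35179850, plus strand) encodes the regulatory light chain of smooth muscle and nonmuscle myosin II, whose phosphorylation starts contraction. It was at 332 and 341 TPM in parental and lower in all 12 edited libraries, from 203 to 241 TPM. By line these were 213 and 220 TPM in SAP30-KO1, 213 and 208 TPM in SAP30-KO2, 228 and 218 TPM in SIN3A+SIN3B-DKO1, 241 and 238 TPM in SIN3A+SIN3B-DKO2, 204 and 203 TPM in MLL1-KO1, and 237 and 235 TPM in MLL1-KO2. No edited library of any genotype overlapped with parental. The log2 differences of MYL9 were -0.63, -0.67, and -0.59 (SE 0.03 each) in SAP30-KO1, SAP30-KO2, and SIN3A+SIN3B-DKO1 (adjusted p = 6.77e-08, 3.90e-08, and 1.16e-07, limma). In SIN3A+SIN3B-DKO2 the difference of -0.49 (adjusted p = 4.91e-07, limma) was short of 1.5-fold. The call in SIN3A+SIN3B-DKO1 lay at the fold minimum and was lost without its replicate 2, at -0.56, without parental replicate 2, at -0.57, with voom, at -0.56, and with the neighbours subtracted, at -0.53.

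MYH10 (GRCh37 chr17:8377525-8534694, minus strand), the heavy chain of nonmuscle myosin IIB, was lower than parental in every edited line and close to absent in the MLL1-KO lines. The parental libraries had 56.7 and 52.3 TPM, from 3163 and 2843 reads. MLL1-KO1 had 0.253 and 0.128 TPM, from 16 and 8 reads, and MLL1-KO2 had 0.989 and 1.26 TPM, from 52 and 70 reads. On the means this is 286-fold and 48.5-fold less than parental, and -6.32 and -5.09 on the log2(TPM + 0.5) scale, which understates changes of low values (-8.11 and -5.56 with limma's voom on the recovered reads). The other lines kept more of it: SAP30-KO1 had 32.9 and 28.2 TPM, SAP30-KO2 had 33.5 and 32.6 TPM, SIN3A+SIN3B-DKO1 had 35.4 and 34.4 TPM, and SIN3A+SIN3B-DKO2 had 28.3 and 32.8 TPM. These 8 libraries overlapped among themselves and lay between parental and the MLL1-KO lines. The log2 differences of MYH10 were -0.83 and -0.71 (SE 0.12 each) in the SAP30-KO1 and SAP30-KO2 lines and -0.63 and -0.83 (SE 0.12 each) in SIN3A+SIN3B-DKO1 and SIN3A+SIN3B-DKO2, with adjusted p from 1.48e-04 to 8.67e-04 (limma), and the call in SIN3A+SIN3B-DKO1 was lost without parental replicate 1, at -0.58. MYH10 was chosen for lying below the same parental libraries, so a parental level that is high by accident would favour these calls too. The SAP30-KO and SIN3A+SIN3B-DKO lines differed by -0.04 (SE 0.08, adjusted p = 0.735, limma). In MLL1-KO1 against MLL1-KO2, libraries that also enter the comparison used to choose the genes, MYH10 was at -1.23 (SE 0.12), which is 5.89-fold lower on the means and came to -2.55 with voom. As MYH10 was chosen for its level in these lines, this too is a description with no test.

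MYH9 (GRCh37 chr22:36677326-36784055, minus strand), the heavy chain of nonmuscle myosin IIA, was the most abundant of the 10 genes on the TPM scale and changed little. It was at 694 and 669 TPM in parental, from 486 to 590 TPM in the SAP30-KO libraries, from 537 to 623 TPM in the SIN3A+SIN3B-DKO libraries, and from 675 to 724 TPM in the MLL1-KO libraries. The differences of -0.38, -0.24, -0.34, and -0.20 (SE 0.07 each) in SAP30-KO1, SAP30-KO2, SIN3A+SIN3B-DKO1, and SIN3A+SIN3B-DKO2 passed the p (adjusted p from 5.68e-04 to 0.0252, limma) and were all short of 1.5-fold. MYH10 made up 7.25% and 7.55% of the summed TPM of the 2 heavy chains in parental, from 5.38% to 5.54% in the SAP30-KO libraries, from 4.78% to 6.14% in the SIN3A+SIN3B-DKO libraries, and from 0.0190% to 0.173% in the MLL1-KO libraries. The sum itself was 722 and 751 TPM in parental and from 675 to 725 TPM in the MLL1-KO libraries, so that MYH9 was nearly the sole heavy chain RNA of the pair there. The heavy chain of smooth muscle, MYH11, had at most 2 reads in any library. Of the 50-base stretches of MYH9 and MYH10, 0.675% and 0.583% occur exactly in transcripts of another protein-coding gene, which again is no estimate of misplaced reads.

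**Figure D3:**
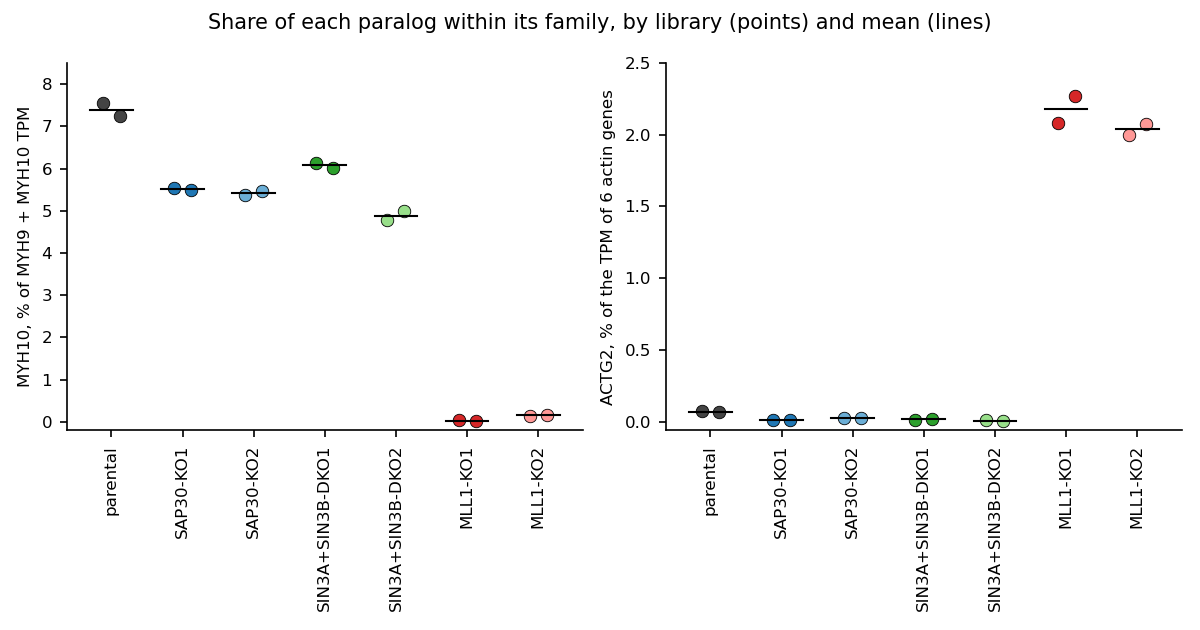
Left, MYH10 as a percentage of the summed TPM of MYH9 and MYH10; right, ACTG2 as a percentage of the summed TPM of 6 actin genes (y axes), in the 14 libraries grouped by condition (x axes), with points for libraries and lines for means of 2 libraries. The MYH10 share lies from 4.78% to 7.55% outside the MLL1-KO lines and at or below 0.173% in them, and the ACTG2 share is at or above 2.0% only in the MLL1-KO libraries.

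Over the 10 genes, the SAP30-KO lines had most calls. SAP30-KO1 had 5 of the 10 genes called lower and 1 called higher, against 7.86% and 7.80% of all genes tested, and SAP30-KO2 had the same counts against 8.12% and 7.44%. In both lines the lower genes were ACTG2, ACTA2, TAGLN, MYL9, and MYH10 and the higher gene was TPM2. In SIN3A+SIN3B-DKO1, 4 genes were called lower (ACTG2, ACTA2, MYL9, and MYH10) and 1 higher (CNN1), beside 8.66% and 7.76% of all genes, and in SIN3A+SIN3B-DKO2, 3 lower (ACTG2, ACTA2, and MYH10) and 1 higher (CNN1), beside 7.56% and 6.0%, where CNN1 counts as favoured by the filter. ACTG2, ACTA2, and MYH10 were called lower in all 4 of these lines, as were 3.91% of all genes tested. The MYH10 calls carry the reservation about the parental libraries given above. The median log2 difference of the 10 genes was -0.51, -0.46, -0.18, and -0.08 in the 4 lines, in that order, and that of all genes tested lay between 0 and 0.03. The 10 genes did not move as a block: CALD1, MYH9, and TPM1 passed the fold minimum in none of these lines, and TPM2 moved against the others where called. By the adjusted p alone 8, 8, 9, and 9 of the 10 genes passed in the 4 lines (limma), where 51%, 51.7%, 56.0%, and 49.6% of all genes did. Both counts of 9 include CNN1, which was favoured by the filter and is a description.

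In the MLL1-KO lines, where the choice of the genes fixes part of the picture, at least 1.5-fold lower were ACTA2, TAGLN, MYL9, and MYH10 in MLL1-KO1 and ACTA2, TAGLN, and MYH10 in MLL1-KO2, and at least 1.5-fold higher were ACTG2 in both and TPM2 in MLL1-KO2. By size alone 17.2% (lower) and 8.01% (higher) of all genes tested reached this in MLL1-KO1, while MLL1-KO2 had 15.9% and 11.4%. The direct comparisons gave 1 lower gene between the SAP30-KO lines (ACTG2), where 0.0739% of all genes were called lower and as many higher, and 1 higher gene between the SIN3A+SIN3B-DKO lines (ACTG2), beside 1.22% higher and 1.01% lower. Between the MLL1-KO lines 2 genes were called lower in MLL1-KO1 (TAGLN and, as a description, MYH10), beside 7.15% lower and 3.27% higher. Between the SAP30-KO and the SIN3A+SIN3B-DKO lines 2 genes were called lower (TAGLN and, favoured by the filter, CNN1) and 1 higher (ACTG2, 0.64 with SE 0.09 and adjusted p = 1.63e-04, limma), beside 3.25% and 4.22%. By the adjusted p alone these direct comparisons gave 1, 4, 5, and 7 of the 10 genes, in that order, beside 0.524%, 12.5%, 42.1%, and 48.6% of all genes (limma). The 5 include MYH10 and the 7 include CNN1, both as descriptions. The ACTG2 call between the SAP30-KO and SIN3A+SIN3B-DKO lines was at 1.77-fold with overlapping libraries and was lost without SIN3A+SIN3B-DKO1 replicate 1, at 0.58, without SIN3A+SIN3B-DKO2 replicate 2, at 0.54, with a pseudocount of 1, at 0.53, and under quantile scaling, at 0.58. In bulk RNA, a smaller share of cells with a transcript and less of it per cell cannot be told apart.

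**Figure D4:**
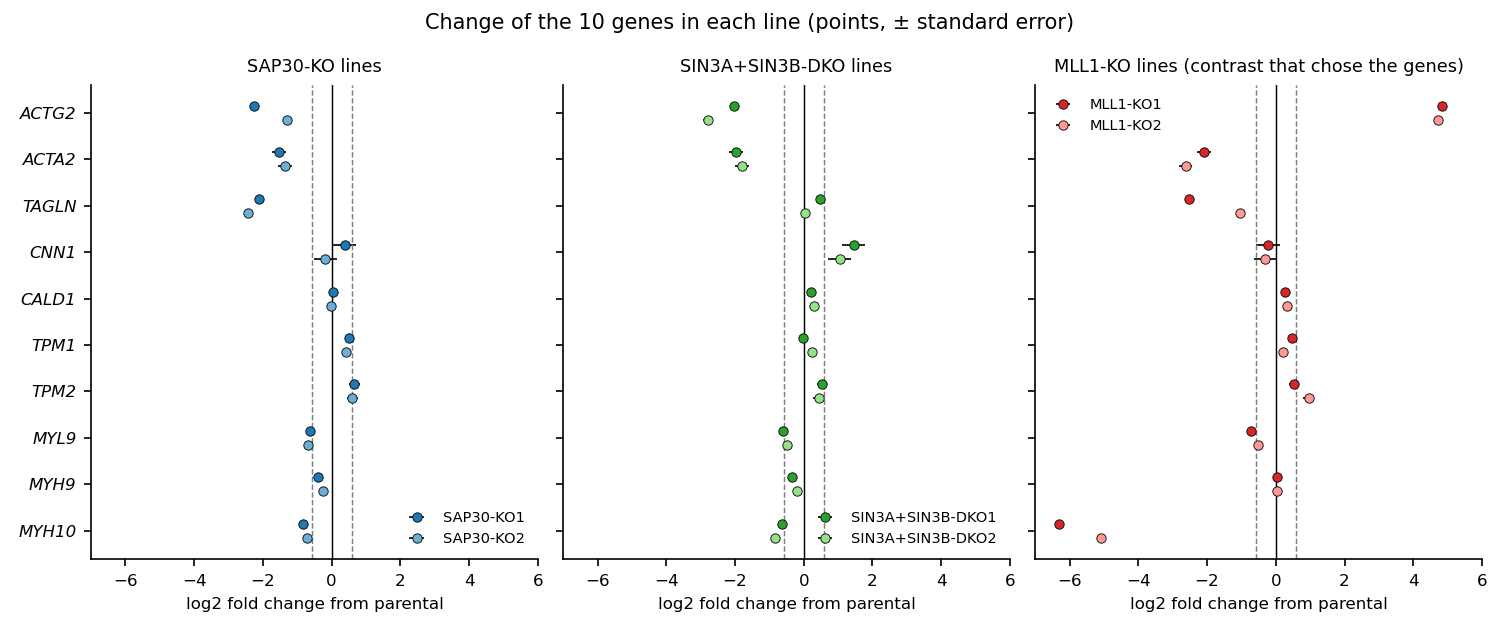
Log2 difference from parental on the log2(TPM + 0.5) scale (x axes) of the 10 genes (y axis) in the SAP30-KO, SIN3A+SIN3B-DKO, and MLL1-KO lines, with KO1 or DKO1 as the darker and KO2 or DKO2 as the lighter points. Error bars are standard errors, some smaller than the points, and dashed lines mark 1.5-fold; ACTG2 runs from -2.79 to 4.84 and MYH10 reaches -6.32, while CALD1 stays between -0.03 and 0.32.

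Other contractile genes were followed in 7 lists of 49 genes, of which 46 were in the table and 38 were tested. Each SAP30-KO line had 0 of the 38 called lower and 4 called higher by limma, against 7.86% and 7.80% of all genes tested for SAP30-KO1, and 8.12% and 7.44% for SAP30-KO2. By the adjusted p alone, in either direction, 22 of the 38 passed in SAP30-KO1 and 27 in SAP30-KO2, where 51% and 51.7% of all genes did. SIN3A+SIN3B-DKO1 had 2 lower and 4 higher, against 8.66% and 7.76%, and SIN3A+SIN3B-DKO2 had 2 of each, against 7.56% and 6.0%. The calls were 2 lower and 4 higher for MLL1-KO1, against 16.3% and 6.89% of all genes tested, and 3 lower and 4 higher for MLL1-KO2, against 14.9% and 10.2%. By the adjusted p alone 60.5% and 64.2% of all genes passed in these 2 lines, and 23 and 28 of the 38. The median log2 difference of these 38 genes lay between -0.04 and 0.08 in the 6 lines, against -0.51 to -0.08 for the 10 genes in the SAP30-KO and SIN3A+SIN3B-DKO lines. Apart from ACTG1, no other actin and no other myosin chain among those tested was called in any line. Only 2 of the 4 other actins and 4 of the 6 other myosin chains were tested. ACTA1, ACTC1, and MYH11 did not pass the filter and could not be called.

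Other smooth muscle related genes did not move in a single direction. TAGLN2, the transgelin of nonmuscle cells, rose from a parental mean of 839 TPM by 0.65 and 0.69 (SE 0.04 each) in SAP30-KO1 and SAP30-KO2 (adjusted p = 1.35e-07 and 8.60e-08, limma), the lines in which TAGLN fell. SMTN, smoothelin, rose by 0.66 and 0.86 (SE 0.07 each) in the SAP30-KO1 and SAP30-KO2 lines, by 0.64 in SIN3A+SIN3B-DKO1, and by 0.75 and 1.09 in MLL1-KO1 and MLL1-KO2, with adjusted p from 1.33e-07 to 1.72e-05 (limma). SYNM, the intermediate filament protein synemin, was lower, at -0.59 and -0.61 (SE 0.08 each) in SIN3A+SIN3B-DKO1 and SIN3A+SIN3B-DKO2 and at -1.10 and -0.73 in MLL1-KO1 and MLL1-KO2 (adjusted p from 4.99e-07 to 9.64e-05, limma). The fibroblast genes, watched as markers of another cell type, summed to 7.57 and 8.04 TPM in parental, 9.14 to 10.7 TPM in SAP30-KO, 6.35 to 7.84 TPM in SIN3A+SIN3B-DKO, and 10.3 to 14.9 TPM in MLL1-KO libraries, with COL1A1 the highest of the 6. In parental 4 of the 6 stayed under 1 TPM, and DCN and COL3A1 had 0 reads. Members differed in direction: PDGFRB was at 2.55 and 2.99 TPM in parental and from 0.786 to 1.65 TPM in the SAP30-KO and SIN3A+SIN3B-DKO libraries, where limma called it lower in all 4 lines, and LUM was at 0.472 and 0.854 TPM in parental and at most 0.0658 TPM in the MLL1-KO libraries. Their part in the values of the 10 genes was not tested.

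Among further cytoskeletal genes known as SRF targets, FHL1, a LIM protein of muscle, rose by 0.91 and 1.0 (SE 0.11 each) in the SAP30-KO1 and SAP30-KO2 lines and by 0.74 in SIN3A+SIN3B-DKO1, and was lower, at -2.66 and -1.89 (SE 0.11 each), in MLL1-KO1 and MLL1-KO2 (adjusted p from 8.20e-09 to 2.61e-04, limma). It was at 21.0 and 21.2 TPM in parental, from 38.4 to 44.5 TPM in the SAP30-KO, and from 2.58 to 6.06 TPM in the MLL1-KO libraries, with no overlap. CSRP1, a LIM protein that binds alpha-actinin and zyxin, rose by 0.61 and 0.62 (SE 0.04 each) in SIN3A+SIN3B-DKO1 and SIN3A+SIN3B-DKO2 (adjusted p = 3.45e-07 and 3.62e-07, limma). PDLIM7, which ties actin to kinases, rose by 0.81 and 1.02 (SE 0.03 each) in MLL1-KO1 and MLL1-KO2 (adjusted p = 8.89e-09 and 1.11e-09, limma) and by 0.64 in SIN3A+SIN3B-DKO2 (adjusted p = 1.84e-07, limma). Of 13 genes of contraction signalling only RHOB, a small GTPase, was called against parental, and it rose by 0.90 and 0.78 (SE 0.08 each) in the SAP30-KO1 and SAP30-KO2 lines and by 0.66 and 1.08 in MLL1-KO1 and MLL1-KO2 (adjusted p from 5.46e-07 to 3.12e-05, limma). Directly compared, the log2 difference of the SAP30-KO from the SIN3A+SIN3B-DKO lines was 0.99 for RHOB and -0.73 for CFL1, the actin-severing cofilin (adjusted p = 1.89e-07 and 1.05e-08, limma). SRF and its cofactors MKL1 and MKL2 were expressed, at 79.5 to 100 TPM, 14.6 to 19.2 TPM, and 9.76 to 14.6 TPM over all libraries, and were called in no line.

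**Figure D5:**
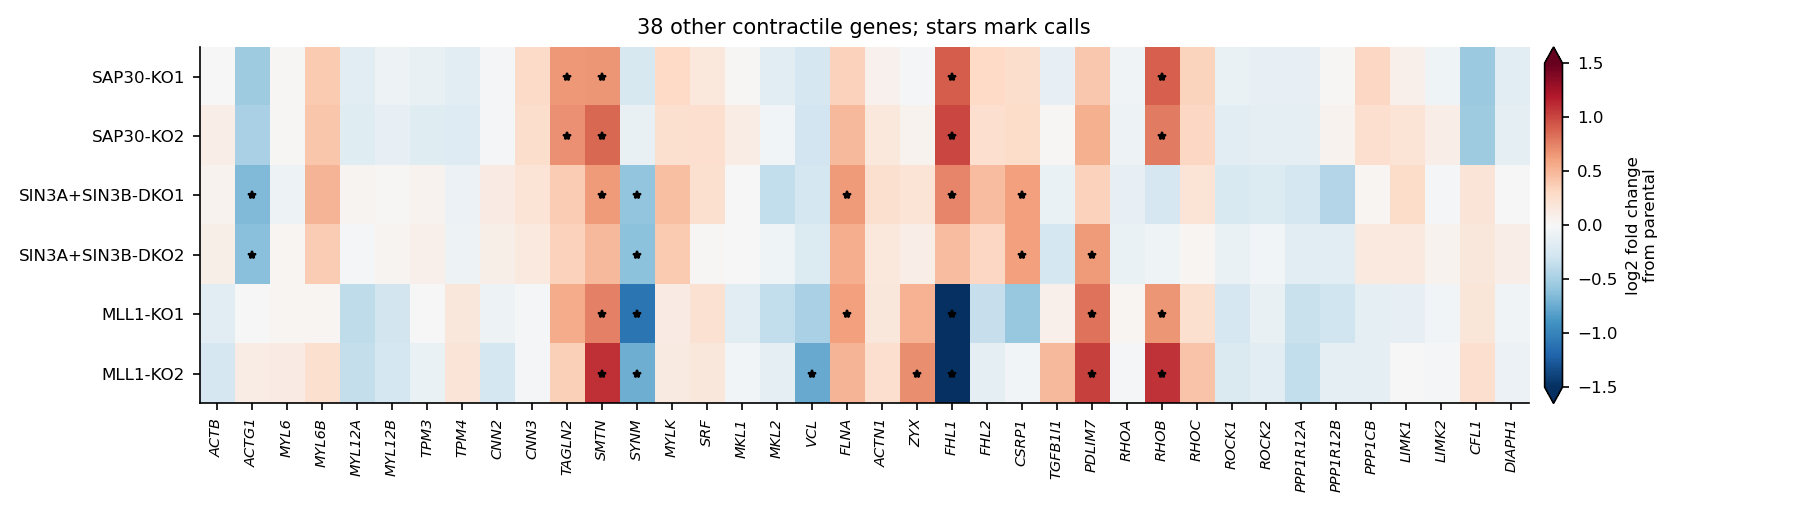
Log2 difference from parental (colour, red higher and blue lower, saturated beyond 1.5 either way) of the 38 other contractile genes tested (x axis) in the 6 lines (y axis), with stars at genes called at an adjusted p under 0.05 and 1.5-fold. Most cells are pale and unstarred, and FHL1 turns from 0.91 and 1.0 in the SAP30-KO lines to -2.66 and -1.89 in the MLL1-KO lines.

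The genes whose levels across the 7 conditions were most like those of ACTG2 and MYH10 were named by Pearson's r of the condition means on the log2(TPM + 0.5) scale, as a description over points that share libraries and a single group of extreme lines. This r compares the shape of a pattern and takes no account of the size of the change. For ACTG2 these were WNT9A (r = 0.993), KIF6 (r = 0.991), and ARHGEF1 (r = 0.991). WNT9A was at 1.96 and 2.13 TPM in parental, from 0.383 to 1.67 TPM in the SAP30-KO and SIN3A+SIN3B-DKO libraries, and from 20.9 to 34.5 TPM in the MLL1-KO libraries. ARHGEF1 changed far less than ACTG2, from 113 and 121 TPM in parental to between 144 and 156 TPM in the MLL1-KO libraries. KIF6 was at 0.280 and 0.359 TPM in parental and from 1.79 to 2.42 TPM in the MLL1-KO libraries. It passed the filter only through the MLL1-KO libraries. For MYH10 they were ARSJ (r = 0.998), HMSD (r = 0.997), and FAM160B1 (r = 0.997). ARSJ was at 49.8 and 51.3 TPM in parental, from 44.3 to 47.7 TPM in the SAP30-KO and SIN3A+SIN3B-DKO libraries, and from 10.6 to 16.1 TPM in the MLL1-KO libraries, a smaller gap than that of MYH10. None of the other 9 contractile genes was among the 3 most like ACTG2, and none was among the 3 most like MYH10.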

How the data were processed

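RNA-Seq libraries had been made by the authors from total RNA of parental MDA-MB-231 cells and 6 edited lines, 2 each, with a KAPA mRNA library kit and sequenced on a NextSeq instrument. The deposited values were named RPKM by the authors, but their sum is equal in all libraries, as for TPM, and they were used as TPM. The submitters' processing notes name FastQC 0.11.2, TopHat, featureCounts, and hg19, with no order, and the annotation and strand setting are not given in the sources used here. With a fixed sum, TPM are relative: abundant genes that rise push others down.

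Reads were rebuilt from the value steps, to within 0.02 of a whole number, for 18519 of 18519 genes above 0 (100.0%). The smallest whole numbers that fit were taken, so genes seen in few libraries fit easily and may be given too few reads. Replicate libraries differed by more than sampling noise (chi-square per degree of freedom 1.47 to 8.03) and were counted separately. The highest values were 8.03 in SIN3A+SIN3B-DKO2 and 3.78 in SAP30-KO1. The fit shares 1 estimate of the spread per gene over the 7 conditions, so standard errors for these lines may be too small.

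The fit used limma 3.58.1 (R 4.3.3) on log2(TPM + 0.5), with 7 group means and a variance trend, for genes that reached 1 TPM in at least 2 libraries. Genes were called at a Benjamini-Hochberg adjusted p under 0.05 and at least 1.5-fold. The procedure was also run on simulated counts with the same spread setting in every condition. The spread of these libraries differed between conditions, so that run does not show how the calls behave here. Positions are from GENCODE release 44 on GRCh37, for 13060 of the 13540 genes tested (96.5%). MYH14, KCNMB1, and PLN are not analysed here. Figures and counts used Python 3.11.15 with numpy 2.4.6, pandas 2.3.3, and matplotlib 3.10.9.

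The 10 genes, the other lists, and the tests were chosen with earlier results of these data known. Genes of the other lists were named when called in the same direction in both lines of a genotype (at most 4 per list and genotype), with SRF, MKL1, MKL2, MYOCD, MYH11, and DES in any case, and the 3 genes most like ACTG2 and MYH10. CFL1, ACTB, COL1A1, ACTA1, ACTC1, and LMOD1 were named after their values were seen. Alternatives were pseudocounts of 0.1 and 1, no filter, quantile and median ratio scaling, no fold minimum, only the libraries compared, a replicate block, each library left out, limma's voom on recovered reads, and subtraction of a running median over 51 neighbouring genes.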

Additional observations from a re-analysis of the deposited data

Results flagged for a closer look

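Some of the 10 genes differed between the lines of a genotype. On the log2(TPM + 0.5) scale ACTG2 was at -0.97 in SAP30-KO1 against SAP30-KO2 and at 0.76 in SIN3A+SIN3B-DKO1 against SIN3A+SIN3B-DKO2. TAGLN was at -1.49 and MYH10 at -1.23 in MLL1-KO1 against MLL1-KO2. Adjusted p over the alternatives ran from 0.0034 to 0.265 and from 5.71e-04 to 0.196 for the 2 ACTG2 values and from 8.55e-10 to 0.00346 for TAGLN (limma). The MYH10 value is a description, since that gene was chosen for its level in these lines.

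Between genotypes, ACTG2 was at 0.64, TAGLN at -2.53, and CNN1 at -1.16 in the SAP30-KO lines against the SIN3A+SIN3B-DKO lines. ACTG2 and TAGLN passed the test, and CNN1 is a description, since it entered the test only through the SIN3A+SIN3B-DKO libraries. ACTG2 moved in opposite directions against parental, at 4.84 and 4.72 in MLL1-KO1 and MLL1-KO2, at -2.25 and -1.29 in the SAP30-KO1 and SAP30-KO2 lines, and at -2.03 and -2.79 in SIN3A+SIN3B-DKO1 and SIN3A+SIN3B-DKO2. That difference was not tested, since it belongs to the comparison from which the genes were chosen.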

How the results depend on the processing

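No result turned its direction among those called. Of the counts of calls under all alternatives, 259 stayed within 1.5 times the reported count and 27 did not. With no fold minimum the calls among the 10 genes became 9 in SIN3A+SIN3B-DKO1 and 9 in SIN3A+SIN3B-DKO2, 4 between those lines, 5 between the MLL1-KO lines, and 7 between the SAP30-KO and SIN3A+SIN3B-DKO lines. The counts of 9, 9, and 7 include CNN1 and that of 5 includes MYH10, both as descriptions. The calls among the other contractile genes became 22, 27, 28, 20, 23, and 28 in SAP30-KO1, SAP30-KO2, SIN3A+SIN3B-DKO1, SIN3A+SIN3B-DKO2, MLL1-KO1, and MLL1-KO2, and 3, 17, and 24 in the last 3 direct comparisons. Subtraction of the neighbours left 1 other contractile gene called in SAP30-KO1 and 2 in SIN3A+SIN3B-DKO1, and quantile scaling left 3 in the latter. With only the libraries compared, or with voom, 0 of the 10 genes was called between the SAP30-KO lines and 0 between the SIN3A+SIN3B-DKO lines. The causes were not tested. With a library left out, the calls among the 10 genes ran from 0 to 0 between the SAP30-KO lines where a SAP30-KO library was left out and from 0 to 1 between the SIN3A+SIN3B-DKO lines, and the other contractile genes called in SIN3A+SIN3B-DKO2 ran from 2 to 4, with 2 without SIN3A+SIN3B-DKO2 replicate 1. Quantile scaling raised the median of all genes by 0.13 in MLL1-KO1, and CNN1, not called there, then read 0.40 and 0.22 in the MLL1-KO lines instead of -0.23 and -0.30. Genes with few reads, CNN1, ACTA2, and ACTG2 outside the MLL1-KO lines, are limited by depth.

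The replicate numbers gave no pairing: over 21 pairs of groups the deviations of same-numbered libraries correlated at 0.01 on average, from -0.07 to 0.08. With this number fitted as a replicate block, calls among the 10 genes were 6, 6, 5, and 4 in SAP30-KO1, SAP30-KO2, SIN3A+SIN3B-DKO1, and SIN3A+SIN3B-DKO2 and 1, 1, 2, and 3 in the direct comparisons, and those among the other contractile genes were 4, 4, 6, 4, 6, and 7 in the 6 lines. CNN1 is part of the counts among the 10 genes in both SIN3A+SIN3B-DKO lines and in the last direct comparison. MYH10 is part of that between the MLL1-KO lines, and both are descriptions. The share of all genes called was counted for the reported fit only, so none stands beside the counts with this block or the other alternative fits.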
